A study of Caenorhabditis elegans with 8 samples.

Results

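The cest genes of Caenorhabditis elegans encode proteins related to carboxylesterases, and 34 of the 20010 named genes on the array carried a symbol of this family. They were chosen by symbol alone, as cest- followed by a number, after the sequence name or transcript accession of each probe had been matched to the RefSeq gene table. No measured value entered this rule. The annotation lists 32 of them as protein-coding genes and 2, cest-15 and cest-29, as pseudogenes. Of the 34 genes, 16 lie on chromosome V, 9 on chromosome X, 5 on chromosome IV and 2 on chromosome III, with 1 on chromosome I and 1 on chromosome II.

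Carboxylesterases of this kind are serine hydrolases with the alpha/beta-hydrolase fold, a fold shared with the cholinesterases. In C. elegans several CEST proteins act in the gut granules, the lysosome-related organelles of intestinal cells. There they join building blocks through ester or amide bonds to ascarosides, the small glycolipids that serve as pheromones, and to glucosides. Genetic work in C. elegans placed cest-1.1, cest-2.2, cest-3, cest-8 and cest-9.2 in the assembly of modular ascarosides and cest-4 in that of modular glucosides. No individual role is stated here for the remaining members.

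The study measured total RNA of N2 wild-type animals and of seip-1 knockout animals, which lack the worm gene for seipin, a protein that acts where lipid droplets form. Each genotype was sampled as embryos and as young adults, which gave 4 groups of 2 single-colour Agilent arrays. Young adults were collected 52 h after the L1 stage, and embryos were freed with hypochlorite from gravid adults of that age. The labels give neither the knockout allele nor the developmental age of the embryos, and they do not say that replicates came from separate cultures, so the p-values measure only the spread between these samples. In RNA of whole embryos or whole animals, fewer cells that express a gene and less of its RNA per cell cannot be told apart.

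Each array held 43603 probes, of which 65.7% to 75.5% were well above background. The number of arrays, 2 per group throughout, limits the precision. Levels are given as scaled signal, the processed signal of the probe as a percentage of the 75th percentile of its array, so a level can be compared between arrays for 1 gene but not between genes. The 75th percentile itself lay between 1387 and 2745 intensity units. The median signal was lower in wild-type embryos (74.7 and 77.4) than in knockout embryos (265 and 214) and in the adult groups (218 to 276). All embryo arrays shared a slide, and a different slide carried all adult arrays, so the genotypes were compared within a slide and stage cannot be told apart from slide. The probe of seip-1 on chromosome V served as the check of the labels. Its scaled signal was 237 and 263 in wild-type embryos and 117 and 129 in wild-type adults, and it was not well above background on any knockout array, which put the knockout at least 311-fold lower among embryos (adjusted p = 2.24e-05) and, among adults, at least 114-fold lower (adjusted p = 4.06e-05).

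A probe counted as measured where some group had both its arrays well above background. By this rule 32 of the 34 cest genes were measured, while cest-29 and cest-30 were not above background in any group. Members above background on both arrays of a group numbered 27 in wild-type and 28 in knockout embryos, and 31 in wild-type against 30 in knockout adults. The plot of scaled signal by array shows every measured member.

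**Figure D1:**
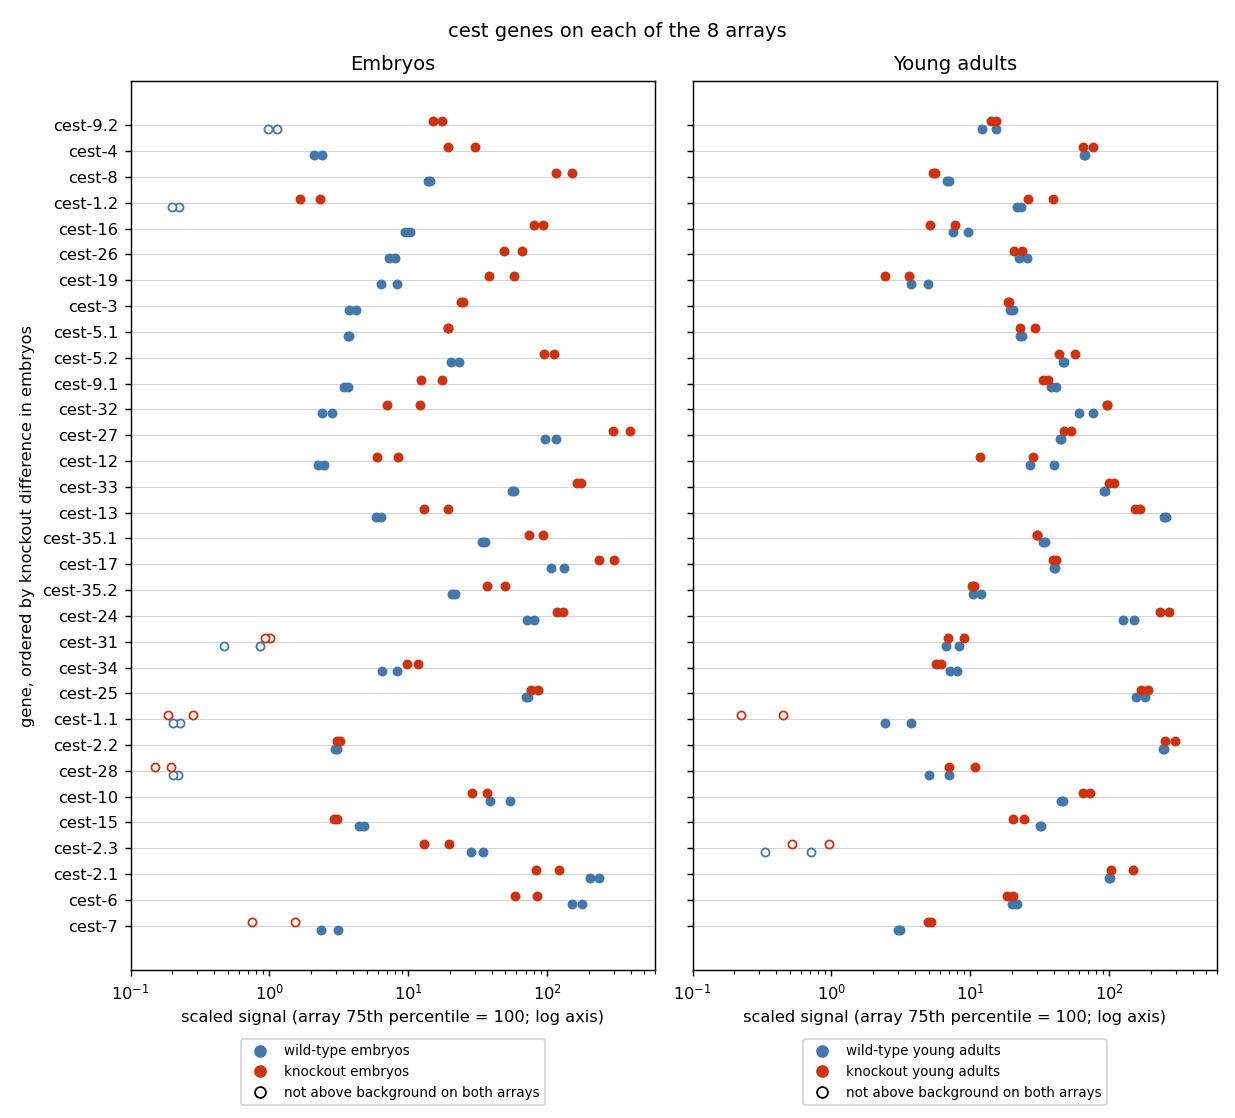
Scaled signal (log axis, array 75th percentile = 100) of the 32 measured cest genes on each array, 2 points per group, with wild type in blue, knockout in red and open points where a group was not above background on both arrays. In embryos the red points lie right of the blue ones for cest-9.2 (14.9 and 17.5 against 0.969 and 1.13) and most genes below it, whereas in young adults 21 of the 31 genes tested differed by less than 0.5 on the log2 scale.

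The embryo comparison asks which cest genes differ in embryos that lack seipin. Most of the family was higher in knockout embryos: of 29 members tested, 21 rose and 4 fell at an adjusted p under 0.05. Such calls were the rule in embryos, since 84.9% of the 15399 genes tested passed, 44.6% upward and 40.3% downward, against 72.4% and 13.8% of the cest genes. The median log2 difference, knockout minus wild type, was 1.58 over the tested cest genes and 0.15 over all genes, and the members ranged from -1.35 for cest-7 to 3.95 for cest-9.2. A fitted difference of at least 4-fold upward was called in 11 of the 29 members, while 28.8% of all genes tested met that mark. Most of the 11 fell short of it with median scaling or normexp correction, and cest-8 and cest-16 alone stayed past it under both. With median scaling and normexp correction in turn, the log2 differences were 2.17 and 2.88 for cest-8 and 2.08 and 2.43 for cest-16. They were 1.57 and 1.77 for cest-3 and 0.98 and 1.08 for cest-9.1. Even cest-9.2 (2.90 and 1.90) and cest-1.2 (2.17 and 0.22) fell short with normexp correction. The share of all genes was not counted under those settings. Both knockout arrays exceeded both wild-type arrays for 22 members (75.9%, against 49.2% of all genes) and below them for 6 (20.7%, against 45.6%). The other 3 measured members, cest-1.1, cest-28 and cest-31, were not above background on both arrays of either embryo group and were not tested.

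Among the ascaroside assembly genes, cest-9.2 had a scaled signal of 0.969 and 1.13 in wild-type embryos against 17.5 and 14.9 in knockout embryos. It rose by 3.95 ± 0.18 on the log2 scale (15.4-fold, adjusted p = 3.22e-05), although only 1 of the 2 wild-type arrays was above background for it, and with normexp correction the rise was 1.90. The signal of cest-8 went from 14.3 and 13.9 to 150.5 and 115, a rise of 3.22 ± 0.16 (9.33-fold, adjusted p = 3.22e-05). The wild-type arrays of both genes lay close together and far below the knockout arrays. For cest-3 the wild-type arrays read 4.17 and 3.76 and the knockout arrays 24.1 and 24.6, a rise of 2.62 ± 0.13 (6.15-fold, adjusted p = 3.22e-05). The glucoside assembly gene cest-4 read 2.40 and 2.102 in wild-type embryos against 30.2 and 19.3 in knockout embryos, a rise of 3.43 ± 0.23 (10.8-fold, adjusted p = 4.20e-05). Its knockout arrays differed from each other more than its wild-type arrays did, and both stood above them.

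The remaining ascaroside assembly genes were not called in embryos. The signal of cest-2.2 was 2.98 and 3.08 in wild-type against 3.22 and 3.04 in knockout embryos, with overlapping groups. Its difference of 0.048 ± 0.14 (adjusted p = 0.758) changed sign with the scaling, to -0.89 with quantile normalization (adjusted p = 6.70e-04), -0.999 with median scaling (adjusted p = 0.00116), -0.25 with the median of probes above background on all 8 arrays and -0.28 with normexp background correction. The probe of cest-1.1 read between 0.186 and 0.280 on all 4 embryo arrays, none of them above background.

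Members with no role stated above made up the rest of the rises. The signal of cest-16 was 10.2 and 9.52 in wild-type against 93.0 and 80.1 in knockout embryos, a rise of 3.13 ± 0.24 (8.74-fold, adjusted p = 5.66e-05). For cest-26 it was 7.28 and 8.04 against 65.2 and 49.1, a rise of 2.89 ± 0.19 (7.40-fold, adjusted p = 3.66e-05). All 3 X-linked genes cest-16, cest-26 and cest-19 kept their groups well apart. The level of cest-19 rose from 8.33 and 6.31 to 57.2 and 37.8, by 2.68 ± 0.31 (6.41-fold, adjusted p = 0.000238). The signal of cest-1.2 was 0.222 and 0.199 in wild-type embryos, both not above background, and 2.296 and 1.66 in knockout embryos, which put it at least 1.92-fold higher (adjusted p = 5.84e-05). With normexp correction its difference was 0.22 (adjusted p = 0.313) and the call was lost.

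Between these and the smallest rises lay 8 members with log2 differences from 2.38 to 1.37, which in falling order were cest-5.1, cest-5.2, cest-9.1, cest-32, cest-27, cest-12, cest-33 and cest-13. The signal of cest-27, the member on chromosome I, was 116 and 96.7 in wild-type against 397 and 298 in knockout embryos, a rise of 1.70 ± 0.19. That of cest-33 was 57.9 and 55.3 against 174 and 164, a rise of 1.58 ± 0.13. Both genes had non-overlapping groups. The smallest rises were those of cest-35.1 (1.26 ± 0.15), cest-17 (1.18 ± 0.18), cest-35.2 (1.02 ± 0.18), cest-24 (0.70 ± 0.16) and cest-34 (0.56 ± 0.18).

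The 4 members that fell were cest-6, cest-2.1, cest-7 and cest-15. The signal of cest-6 was 178 and 151 in wild-type against 58.9 and 84.6 in knockout embryos, so it fell by 1.21 ± 0.21 on the log2 scale (2.32-fold, adjusted p = 0.00149). For cest-2.1 the values were 235 and 201 against 83.6 and 121, and it fell by 1.11 ± 0.25 (2.16-fold, adjusted p = 0.00516). Neither gene's groups overlapped. The probe of cest-7 read 3.12 and 2.37 in wild-type embryos against 0.743 and 1.54 in knockout embryos, where 1 of 2 arrays was above background, and it fell by 1.35 ± 0.34 (adjusted p = 0.00839). The pseudogene cest-15 read 4.38 and 4.82 against 3.06 and 2.93 and fell by 0.62 ± 0.15 (adjusted p = 0.00676). For both genes leaving out 1 wild-type array ended the call, replicate 1 for cest-7 (-1.15, adjusted p = 0.0503) and replicate 2 for cest-15 (-0.55, adjusted p = 0.0503). Besides cest-2.2, the members tested and not called were cest-10 (-0.48 ± 0.21, adjusted p = 0.0687), cest-2.3 (-0.97 ± 0.46, adjusted p = 0.0859) and cest-25 (0.17 ± 0.15, adjusted p = 0.315). Both cest-10 and cest-2.3 were called lower under each of the other scalings and with normexp correction, at -0.54 to -1.53 for cest-10 (adjusted p from 0.000707 to 0.0253) and -0.89 to -2.02 for cest-2.3 (adjusted p from 0.00446 to 0.0357). With median scaling cest-25 was called lower too (-0.88, adjusted p = 0.00232).

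The size of the split depended on the scaling. It was 21 up and 4 down as reported, 17 and 8 with quantile normalization, 14 and 9 with median scaling, 20 and 6 with the median of probes above background on all 8 arrays, and 18 and 6 with normexp correction. Median scaling also moved the median over all genes from 0.15 to -0.90, and the split over all genes from 6866 up and 6205 down to 4979 and 8324. With quantile normalization the split over all genes was 6322 and 6210, and with normexp correction 5708 and 6509. Under all 4 of these settings 17 of the 25 calls kept their direction and stayed past the threshold, 13 upward and all 4 downward. The 13 were cest-3, cest-4, cest-5.1, cest-5.2, cest-8, cest-9.1, cest-9.2, cest-16, cest-19, cest-26, cest-27, cest-32 and cest-33. Of the others, cest-34 was called lower with quantile normalization (-0.49) and with median scaling (-0.49), and cest-24 (-0.35) and cest-35.2 (-0.027) had a negative difference with median scaling and were not called. The calls of cest-12 and cest-34 were also lost without wild-type embryo replicate 2 (adjusted p = 0.0533 and 0.146) and without knockout embryo replicate 1 (adjusted p = 0.0733 and 0.106). A fit of the embryo arrays alone gave 21 up and 5 down.

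The knockout embryo arrays were not equally far from the wild type. For 22 of the 25 called members, replicate 1 lay farther from the wild-type arrays than replicate 2. The same count over all genes was not made, so this is not given as a trait of the family. Replicate 1 also had more probes above background, 75.5% against 71.9%. The part of this difference in the result was not tested.

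**Figure D2:**
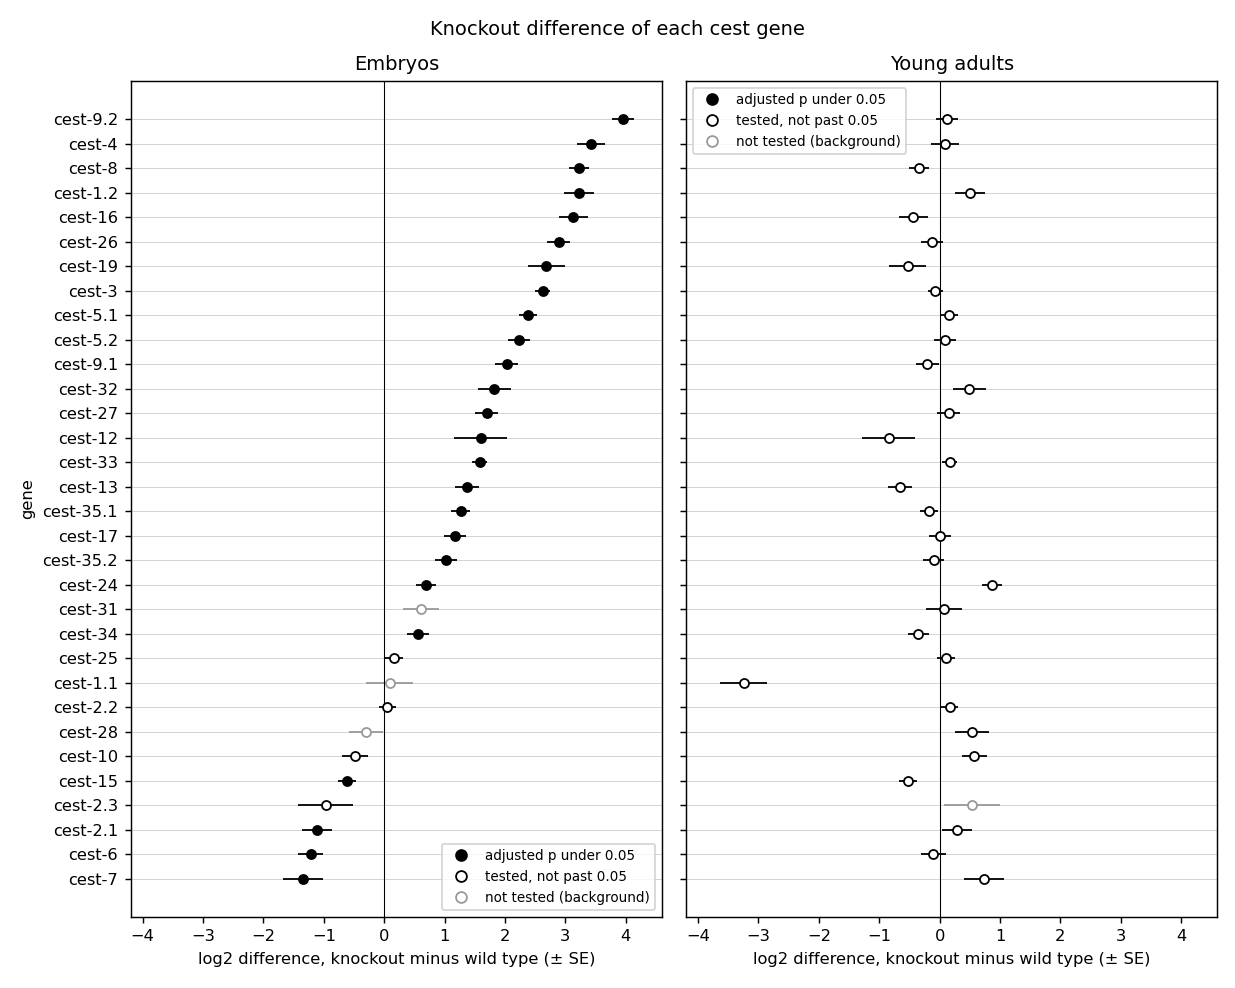
Log2 difference, knockout minus wild type, of the 32 measured cest genes in embryos (left) and young adults (right), as the estimate ± standard error of the linear model with 2 arrays per group. Filled points passed an adjusted p of 0.05 and grey points were not tested: 25 of 29 tested in embryos were filled, and none of 31 in young adults.

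Genes of the same protein family and of the pathway around it were described from fixed lists. For each list the shares to set beside its embryo counts are those of all genes tested, 44.6% higher and 40.3% lower. Of the 7 other genes of the carboxylesterase and cholinesterase family on the array, 5 rose and 1 fell in knockout embryos, with a median log2 difference of 2.44. The acetylcholinesterase genes ace-1 (3.08 ± 0.17, adjusted p = 3.22e-05) and ace-3 (2.92 ± 0.18, adjusted p = 3.51e-05) rose, as did the gut esterase gene ges-1 (1.60 ± 0.15, adjusted p = 0.000101). The member that fell was glit-1, a relative of the insect junction protein gliotactin (-0.80 ± 0.19, adjusted p = 0.00651), a call that was not kept with quantile normalization.

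Genes that shorten ascaroside side chains or attach side groups moved mostly the same way as the cest genes. In this list 6 of 8 tested genes rose and none fell, with a median of 1.28. The peroxisomal thiolase gene daf-22 rose by 1.36 ± 0.17 (adjusted p = 0.00035), the acyl-CoA oxidase gene acox-3 by 1.32 ± 0.16 (adjusted p = 0.000346) and the acyl-CoA synthetase gene acs-7 by 1.62 ± 0.22 (adjusted p = 0.000524). The enoyl-CoA hydratase gene maoc-1 was at 0.041 ± 0.18 (adjusted p = 0.832). With median scaling the list gave 1 rise and 1 fall, around a median of 0.23. Over all 15399 genes tested there were then 4979 rises and 8324 falls, around a median of -0.90.

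Most genes of the list for gut granules, the organelle in which several CEST proteins act, moved the other way. In this list 10 of 14 tested genes fell (71.4%) and 1 rose (7.14%), with a median of -0.93. Of all genes tested 40.3% fell and 44.6% rose. The largest called falls included sand-1 (-1.83 ± 0.20, adjusted p = 0.000193), whose product acts in endosome maturation, snpn-1 (-1.76 ± 0.19, adjusted p = 0.000187), which encodes the worm snapin, and glo-1 (-1.25 ± 0.15, adjusted p = 0.000319), which encodes a Rab GTPase needed to form the granules. The falls numbered between 9 and 14 under the other scalings and normexp correction. All 14 fell with median scaling, under which 8324 of all 15399 genes tested fell. The single rise, apb-1 (0.51 ± 0.14, adjusted p = 0.0135), encodes an adaptor subunit, and no gene of the list was called higher under either median scaling. The probe of glo-3 was not above background in any group.

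Markers of tissues and of embryonic age moved with genotype in the same embryos. Of 14 intestine markers 12 rose and 2 fell, with a median of 2.96, and their summed scaled signal was 1724 and 1729.7 on the wild-type arrays and 7932 and 10668 on the knockout arrays. The falls were those of end-3 (-2.74 ± 0.34) and elt-7 (-0.90 ± 0.17), transcription factor genes of early gut formation. Epidermis and muscle markers rose in 9 of 10 cases (median 2.88), with sums of 8248 and 8690.05 against 23218 and 25275. Such sums mostly follow the probes with the highest signal. In the intestine list asp-1 alone read 5071 and 3729 in knockout embryos. In the epidermis and muscle list sqt-3 read 7326 and 6894 against 13556 and 13727, and it rose by 0.94 ± 0.13. All 12 oocyte and germline markers fell (median -2.45), with sums between 22087 and 24967 in wild type and between 4828 and 5671 in the knockout. Of 10 early zygotic markers 9 fell (median -2.52), with wild-type sums of 4319.6 and 4524 against knockout sums of 722 and 1035.

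Markers of adult tissue were low in all embryos. The 6 adult soma markers summed to between 10.3 and 28.5 on embryo arrays and to between 48009 and 51222 on adult arrays, and the yolk gene vit-6 and the adult collagen gene col-19 were not above background in embryos. The 11 sperm markers summed to between 59.6 and 93.6 in embryos and between 40787 and 42959 in adults. Of those tested in embryos, 3 sperm markers rose and 4 fell of 9, and 2 adult soma markers rose of 4. The part of these lists in the result for the cest genes was not tested. In young adults 0 of the 81 genes of these 9 lists that were tested were called by limma, and 4 had an unadjusted p under 0.05.

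**Figure D3:**
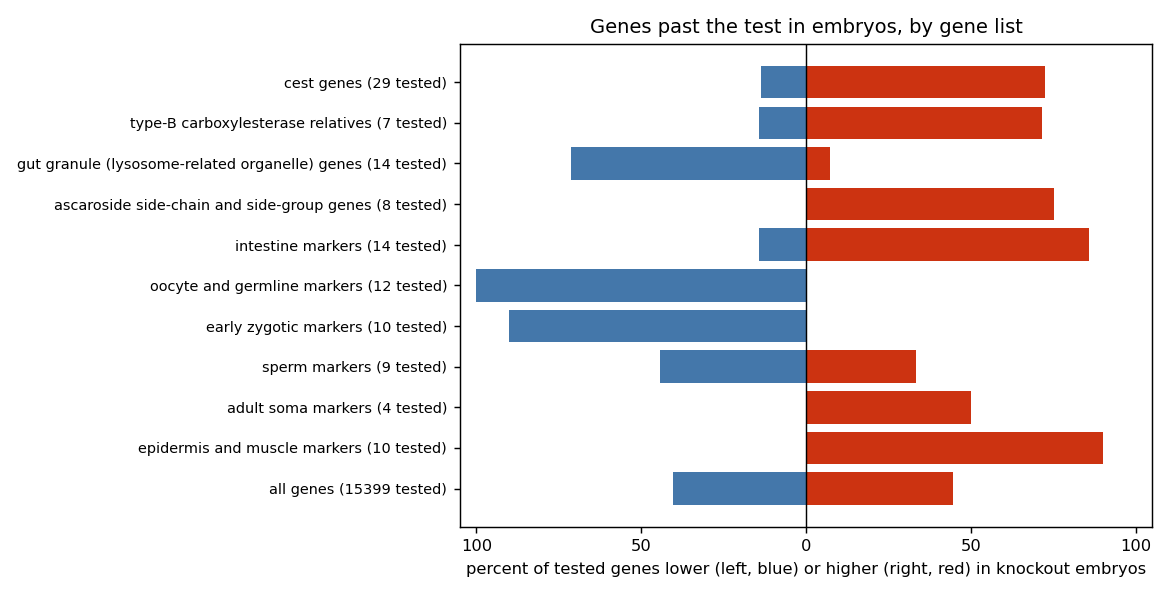
Percent of tested genes that were lower (blue, left) or higher (red, right) in knockout than in wild-type embryos at an adjusted p under 0.05, for the cest genes, the 9 fixed gene lists and all genes. The cest genes (72.4% higher, 13.8% lower) lie near their family relatives (71.4% and 14.3%), and all genes tested were 44.6% higher and 40.3% lower.

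In young adults no cest gene passed the test between genotypes. Of 31 members tested 0 were called in either direction by limma, against 0.0999% of the 15010 genes tested (0.0666% higher, 0.0333% lower). An unadjusted p under 0.05 was reached by 5 of the 31 members, a higher share than the 5.26% of all genes. The median log2 difference was 0.074 over the members and 0.00071 over all genes. Of the 31 differences 17 were positive, and 21 were smaller than 0.5 in size. Both knockout arrays exceeded both wild-type arrays for 9 members (29%, against 13.2% of all genes) and below them for 9 others (29%, against 14.9%).

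The smallest adjusted p in adults belonged to cest-1.1. Its scaled signal was 3.72 and 2.41 in wild-type adults, and 0.225 and 0.448 in knockout adults, where neither array was above background. This bounds the difference at 2.79-fold or more (adjusted p = 0.0829), and the groups did not overlap. The fitted difference was -3.24 ± 0.39, which rests on signals below background. Over 21 settings the adjusted p ran from 0.0340 to 0.557, and the gene was called in 2 of them, with normexp correction (-1.02, adjusted p = 0.0340) and without knockout adult replicate 2 (-3.74, adjusted p = 0.0461).

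The next members in adults were cest-24 and cest-15. The signal of cest-24 was 125 and 149 in wild-type against 268 and 230.5 in knockout adults, a difference of 0.86 ± 0.16 (adjusted p = 0.286). The pseudogene cest-15 read 32.0 and 31.6 against 20.2 and 24.2, a difference of -0.52 ± 0.15 (adjusted p = 0.538). Neither gene's groups overlapped. Further members with an unadjusted p under 0.05 were cest-13 (-0.66 ± 0.20, adjusted p = 0.630) and cest-10 (0.58 ± 0.21, adjusted p = 0.799).

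Members with a known role other than cest-1.1 had adult differences under 0.5 on the log2 scale. The adult signal of cest-9.2 was 15.2 and 12.1 in wild type, compared with 15.4 and 14.2 without seip-1, a difference of 0.12 ± 0.18. The signal of cest-8 was 7.02 and 6.81 in wild-type against 5.58 and 5.36 in knockout adults, a difference of -0.34 ± 0.16. For cest-3 it was 19.3 and 20.3 against 18.7 and 18.96, a difference of -0.070 ± 0.13. The groups overlapped for cest-9.2 and did not for cest-8 and cest-3. The level of cest-4 was 65.6 and 66.7 against 76.5 and 64.8, and that of cest-2.2 was 242 and 246 against 299 and 252. None of these adult differences was called.

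Whether the knockout difference itself differed between stages was tested with an interaction term, the embryo difference minus the adult difference. The called term was positive for 21 (65.6%) and negative for 4 (12.5%) of 32 members tested. Over all genes 39.0% were positive and 33.6% negative, and 72.6% passed in either direction. A positive term means a higher signed difference in embryos, not a larger size of it. For cest-7, cest-2.1 and cest-6 the negative term goes with a called fall in embryos. Large positive terms were those of cest-9.2 (3.83 ± 0.25, adjusted p = 0.000256), cest-16 (3.56 ± 0.34, adjusted p = 0.000326) and cest-8 (3.56 ± 0.23, adjusted p = 0.000256). Their order changed with the processing, and with normexp correction they were 1.83, 2.78 and 3.08. That of cest-3 was 2.69 ± 0.18 (adjusted p = 0.000256). The negative terms belonged to cest-7 (-2.08 ± 0.48), cest-2.1 (-1.41 ± 0.35), cest-6 (-1.11 ± 0.29) and cest-10 (-1.06 ± 0.30). The term of cest-1.1 (3.33 ± 0.55) was computed from signals at background in 3 of the 4 groups, the wild-type adults being the exception, so its size has no measured base, and with normexp correction it was 0.66. That of cest-1.2 (2.71 ± 0.35) turned to -0.22 with normexp correction and was then not called. The split was 17 and 7 with quantile normalization and 13 and 10 with median scaling. Over all 16834 genes tested it was 5676 positive and 5678 negative with quantile normalization, and 4528 and 8569 with median scaling.

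Levels of the cest genes also differed between stages within each genotype, in a comparison that cannot be separated from the slide. In wild type, 7 of 32 members tested (21.9%) were higher in embryos and 19 (59.4%) lower than in young adults. The shares over all genes were 41.4% and 42.6% (84.0% in either direction). With median scaling the split of the members was 12 and 15, and cest-24 and cest-33 then had a positive difference that was not called. The split over all 16122 genes tested moved as well, to 8947 higher and 5331 lower. The ascaroside assembly gene cest-2.2 differed strongly between stages, with 2.98 and 3.08 in embryos against 242 and 246 in adults (-6.33 ± 0.14, adjusted p = 2.64e-07). Its knockout arrays showed the same contrast, 3.22 and 3.04 against 299 and 252 (-6.45 ± 0.14, adjusted p = 2.99e-07). The X-linked cest-13 followed, at 5.89 and 6.38 in wild-type embryos against 248 and 255 in wild-type adults (-5.36 ± 0.20, adjusted p = 1.33e-06). Neither gene's stages came near each other in wild type. The level of cest-1.2 was at least 22.1-fold lower in wild-type embryos than in wild-type adults, that of cest-28 at least 5.87-fold and that of cest-1.1 at least 2.94-fold.

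Few members were higher in wild-type embryos. The signal of cest-2.3 was 34.3 and 28.3 in wild-type embryos and not above background in adults, at least 28.1-fold higher in embryos (adjusted p = 2.64e-05). In the knockout it was 12.95 and 19.5 in embryos, at least 14.8-fold above the adult level. The level of cest-6 was 178 and 151 in wild-type embryos and 20.0 and 21.5 in wild-type adults (2.98 ± 0.21, adjusted p = 1.75e-05). The other 5 were cest-2.1, cest-8, cest-17, cest-27 and cest-35.2, with differences between 0.92 and 1.56.

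In the knockout the stages were split more evenly. Of 31 members tested 14 (45.2%) were higher in embryos and 15 (48.4%) lower than in young adults. The shares over all genes were 38.3% and 43.2% (81.4% in either direction). The largest positive difference among members above background at both stages was that of cest-8, which read 150.5 and 115 in embryos and 5.58 and 5.36 in adults (4.59 ± 0.16, adjusted p = 1.16e-06). It was followed by cest-19 (3.97 ± 0.31) and cest-16 (3.78 ± 0.24). Wild-type embryos and adults were closer for these genes, with a stage difference of 1.03 ± 0.16 for cest-8, 0.76 ± 0.31 for cest-19 and 0.22 ± 0.24 for cest-16, of which that of cest-8 alone passed the test. The knockout calls of cest-3 (0.37 ± 0.13) and cest-5.1 (-0.42 ± 0.16) were lost under several settings.

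For 25 of 32 measured members both arrays of 1 group lay above all 6 other arrays. Of all 16834 measured genes, 29.6% stood highest in this way in embryos of the wild type and 25.8% in those of the knockout. The same held for 5.83% with the adults of the wild type and for 4.94% with the knockout ones. That group was the knockout embryos for 12 members: cest-3, cest-5.2, cest-8, cest-16, cest-17, cest-19, cest-26, cest-27, cest-33, cest-34, cest-35.1 and cest-35.2. It was the wild-type embryos for 3 members, cest-2.1, cest-2.3 and cest-6. The wild-type adults were highest for 4 members, cest-1.1, cest-9.1, cest-13 and cest-15, and the knockout adults for 6, cest-1.2, cest-2.2, cest-7, cest-10, cest-24 and cest-32. The arrays of no group stood above all the rest for cest-4, cest-5.1, cest-9.2, cest-12, cest-25, cest-28 and cest-31. These orders describe 2 arrays per group and were not tested.

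Several cest genes are neighbours in the RefSeq gene order, and neighbours did not share a pattern in all cases. On chromosome V, cest-1.2 and cest-1.1 flank srd-26, and ocam-1 separates cest-1.1 from the adjacent genes cest-2.1, cest-2.2 and cest-2.3. Within this group cest-1.2 rose in knockout embryos, cest-2.1 fell and cest-2.2 and cest-2.3 were not called, while cest-1.1 was at background there. Under the other scalings and normexp correction cest-2.3 was called lower, like cest-2.1. By stage, cest-2.2 was far higher in adults and its neighbour cest-2.3 was above background in embryos alone. On chromosome X, cest-8, cest-9.2, cest-9.1 and cest-7 are adjacent, and C23H4.6 separates cest-7 from cest-3. Here cest-8, cest-9.2, cest-9.1 and cest-3 rose in knockout embryos and cest-7, between cest-9.1 and cest-3, fell. The signal of cest-9.1 was 3.69 and 3.46 in wild-type against 17.3 and 12.3 in knockout embryos (2.03 ± 0.19, adjusted p = 0.000111). Its rise was 1.08 with normexp correction and 0.98 with median scaling.

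**Figure D4:**
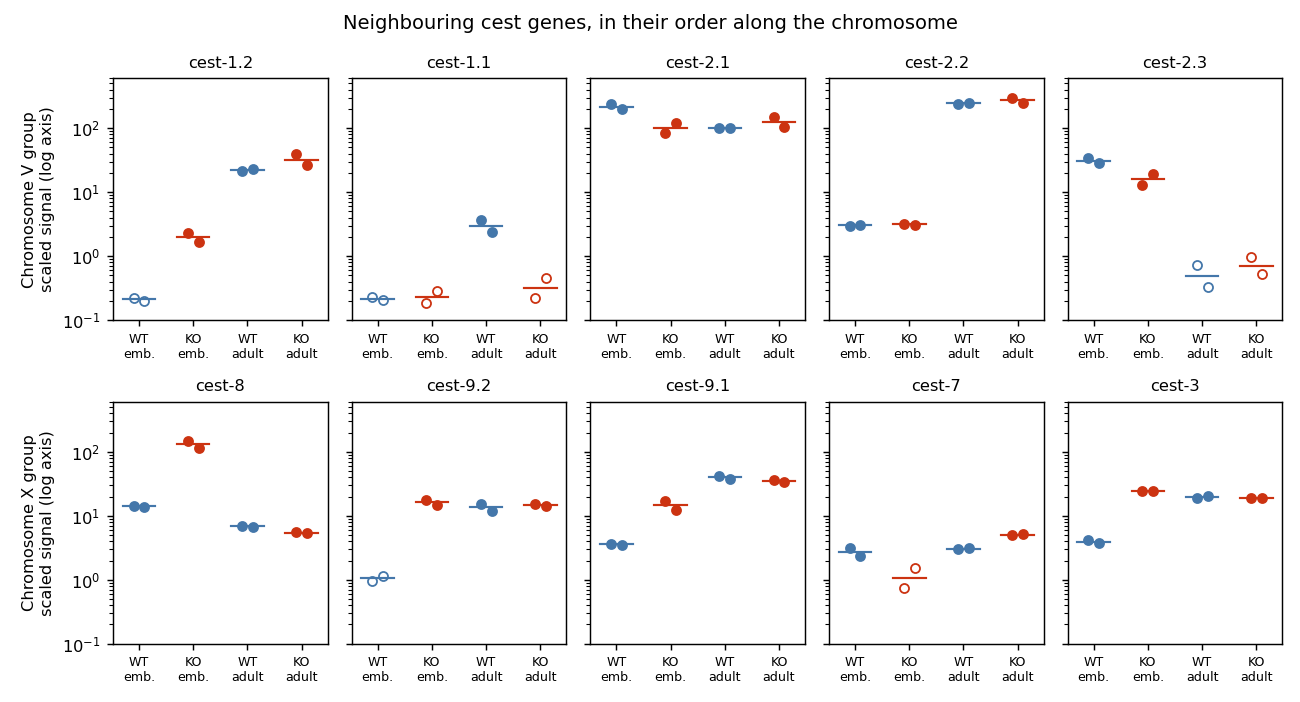
Scaled signal (log axis) of neighbouring cest genes on chromosome V (top) and chromosome X (bottom) in the 4 groups (WT wild type, KO knockout, emb. embryos), with 1 point per array, a line at the geometric mean of 2 arrays and open points where a group was not above background on both arrays. On chromosome X the knockout embryos stand above the wild-type embryos for cest-8, cest-9.2, cest-9.1 and cest-3 and below them for cest-7 (0.743 and 1.54 against 3.12 and 2.37).

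By chromosome, 8 of the 9 members on chromosome X rose in knockout embryos (88.9%) and 1 fell (11.1%). Of all genes tested on that chromosome 62.4% rose and 22.1% fell. On chromosome V 8 of 11 tested members rose (72.7%) and 1 fell (9.09%), against 52.7% and 31.8% of all genes there. On chromosome IV 3 of 5 members rose (60%) and 1 fell (20%), against 44.8% and 40.9% of all genes there. On chromosome III 1 of 2 members rose (50%) and 0 fell, against 33.6% and 51.2%. The adjacent genes cest-5.2 and cest-5.1 on chromosome IV rose by 2.24 ± 0.18 and 2.38 ± 0.16. Of another adjacent set on chromosome V, cest-28, cest-31 and cest-34, only cest-34 was tested in embryos. The adjacent genes cest-32 and cest-35.2 both rose in knockout embryos, and by stage they differed in opposite directions in wild type (-4.71 ± 0.28 and 0.92 ± 0.18).

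The 34 genes had 50 probes, and 25 genes had a single one. Of the 9 genes with several probes 7 had more than 1 measured. The 3 probes of cest-8 gave embryo differences of 3.22, 3.30 and 3.33, those of cest-5.2 gave 1.94, 1.97 and 2.24, and the 2 probes of cest-4 gave 3.38 and 3.43. The probes of cest-13 disagreed, at 1.37 and 1.44 for its brighter pair and 0.58 and -0.27 for the dimmer pair, and the last of these was at or near background in embryos. The probes of cest-31, all at or near background in embryos, gave -0.98, 0.61 and 2.36. Those of cest-15 gave -0.62, -0.14 and -1.48, and all but the first were not above background in embryos. The probes of cest-35.2 gave 1.02 and 0.76. By stage its dimmer probe read 15.0 and 13.3 in wild-type embryos and 1.01 and 1.03, not above background, in wild-type adults. That gap is wider than the stage difference of 0.92 from the brighter probe. Cross-hybridisation between close relatives was not measured, so levels of near-identical members, where there are any, could share signal.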

How the data were processed

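Total RNA of 8 samples was read on Agilent arrays with 1 dye, Cy3. Per the file headers and the submitters' processing notes, intensity values were extracted with Agilent Feature Extraction 10.7.1.1, and the deposited processed intensity is background-subtracted within each array. The authors' deposited log2 table, whose making the labels do not state, equalled these intensities after subtracting the 75th percentile of the array and the wild-type mean of the same stage, within 0.01 for all 348797 values, and was an alternative only.

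Control and flagged spots (4 to 12 per array, 0 saturated) were left out, spots of a probe averaged, and log2 intensities reduced by the array's 75th percentile. Probes were named through the RefSeq table of WBcel235, 31505 by sequence name and 3674 by accession, and 8424 were unnamed. The array's build is older, so no coordinates are given. The brightest of the measured probes stood for a gene, which left 16834 of 20010 genes measured. Where a group was at background, its fold is a bound, taken from the dimmest probe well above background on each array.

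All 8 arrays entered a linear model with a mean per group in limma 3.58.1 (R 4.3.3) with 4 residual and 2.39 prior degrees of freedom. Tests were two-sided, with Benjamini-Hochberg adjustment over all genes tested, covering genes above background on both arrays of a group compared. A ± is a standard error. Python 3.11.15 and matplotlib 3.10.9 drew the figures. The fit was also tried on simulated arrays with few genes changed and independent noise. That setting does not cover a comparison in which 84.9% of genes are called, nor the choice of scaling.

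Genes with values on every array were the members with a known role, the 8 largest rises and 4 largest falls called in embryos, the 3 smallest adjusted p in adults and in the interaction, and up to 3 members per list. Other members were given array values to illustrate them after their values were seen. A planned naming of the brightest and dimmest members was dropped, since levels of different probes are not comparable. Symbols alone decide membership, but the family, and so its members, and the lists were chosen with earlier results of these data known. The list symbols acox-1.4, ssp-9 and vit-3 matched no gene. Alternatives changed the scaling, the background correction (normexp with an offset of 50 on median signals), the filter, the probe per gene, the prior, array weights, replicate block, samples in the fit and the values used. Same-numbered arrays of a stage did not deviate together across 16834 genes (r = 0.0016 in embryos and -0.48 in adults), so replicate numbers did not pair samples. The negative value in adults means that arrays of opposite number tended to deviate together across the genotypes. The main adult test did not model this. With a block for it the standard error of cest-1.1 was 0.23 against 0.39, and its limma adjusted p was 0.139. Slide coincides with stage, so it could not enter as a separate block. Planned protein identities and promoter motifs were not used here.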

Additional observations from a re-analysis of the deposited data

Results flagged for a closer look

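The knockout difference differed between embryos and young adults for most members by the interaction term (limma, adjusted p under 0.05). This term was positive for 21 members (65.6%) and negative for 4 (12.5%). These shares stand against 39.0% and 33.6% of all genes, so a difference between stages is common on these arrays. Among members with known roles the term was 3.83 for cest-9.2, 3.56 for cest-8, 3.34 for cest-4 and 2.69 for cest-3. With normexp correction that of cest-9.2 was 1.83. For cest-1.1 the computed term of 3.33 uses signals at background in 3 of the 4 groups and gives no measured size. Among the other large rises it was 3.56 for cest-16, 3.21 for cest-19 and 3.01 for cest-26. That of cest-1.2, at background in wild-type embryos, was 2.71, and -0.22 without a call with normexp correction. The term was -2.08 for cest-7, -1.41 for cest-2.1 and -1.11 for cest-6, and that of cest-6 lost its call without wild-type embryo replicate 1 (-0.99, adjusted p = 0.0512). The part of tissue and stage markers in these differences was not tested.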

How the results depend on the processing

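Of the alternative values for single named members, 468 kept direction and call and 6 changed sign. Of those that kept direction, 2 gained and 3 lost a call. Sign changed for cest-2.2 in embryos, which was called lower with quantile normalization (-0.89) and with median scaling (-0.999). It was negative and not called with normexp (-0.28) and with the median of probes above background on all 8 arrays (-0.25). Sign also changed for uncalled adult differences of cest-9.2 (-0.045 without wild-type replicate 2, 0.29 without replicate 1) and cest-4 (-0.029 without knockout replicate 1, 0.21 without replicate 2). Members lower in embryos numbered 8 with quantile normalization and 9 with median scaling. In adults 1 member was called lower with normexp. Interaction terms numbered 7 negative with quantile normalization, and 13 positive and 10 negative with median scaling. Members higher in wild-type embryos than adults numbered 11 and 12. The split over all genes moved with the scaling too. With median scaling it was 4979 up and 8324 down in embryos and 4528 and 8569 for the interaction. By stage in wild type it was then 8947 and 5331. The cause of these changes was not tested. Leaving out each array gave 19 to 21 rises and 3 to 5 falls in embryos, 0 rises and 0 to 1 falls in adults, 19 to 21 positive and 2 to 6 negative interaction terms, 7 to 8 higher and 19 lower members by stage in wild type, and 13 higher and 13 to 14 lower in the knockout. With the replicate block the counts were 20 and 5 in embryos, 0 in adults and 21 and 4 for the interaction, and the numbers do not pair the samples. A crossed block in adults, chosen after seeing the data, gave 0 calls in adults and 21 and 5 interaction terms. That median of probes above background was chosen likewise. Over all genes, adult calls ranged from 1 to 74 over all settings, against 15 as reported, with 52 under normexp, 24 with a trended and robust prior, 8 with array weights, 2 with the replicate block, 1 with the adult arrays alone and 74 without knockout adult replicate 1. Signal near background limits cest-1.1, cest-1.2, cest-7, cest-9.2, cest-28 and cest-31. The embryo rises of cest-3, cest-4 and cest-9.1 were also smaller with normexp correction.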
